A study of Mus musculus with 6 samples.

Results

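The γ-crystallin genes of the mouse are the 8 genes Cryga, Crygb, Crygc, Crygd, Cryge, Crygf, Crygn and Crygs, which were followed here on every bead-array probe that carries one of these symbols, or an older name of the same gene, whether or not it was detected. They are 8 of the 19057 genes named on the array and were represented by 11 of its 45281 probes: 3 probes for Crygn, 2 for Crygd and 1 for each of the other 6 genes. The RNA came from E10.5 embryos of a mixed FVB and 129 background. In the CBP/p300 DCKO, both acetyltransferase genes were floxed and deleted by Pax6-Cre, whose Pax6 regulatory sequences act in the head surface ectoderm that gives rise to the lens. By the methods of the study the WT embryos were CBP/p300 fl/fl without Cre, while the sample records name them wild type. Tissue of the lens placode region was cut out by laser, and the records call it surface ectoderm in the DCKO and lens placode in the WT. There were 3 arrays of each genotype, all on 1 chip. The records describe RNA of 3 embryos that was pooled by genotype and amplified in triplicate, whereas the article describes biological replicates, so the p-values below may measure only technical spread.

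γ-Crystallins are small, monomeric, densely packed proteins built from the same Greek key motifs as the β-crystallins, and they are concentrated in the fibre cells that form the core of the lens. Their genes are switched on as lens cells withdraw from the cell cycle and elongate into fibres, under transcription factors that include Maf, Sox1, Prox1 and Hsf4. Mutations in them cause cataract in mice and in people. Crygs encodes a more distant member found in the fibres of the outer lens. Crygn has features of both β- and γ-crystallin genes and is known in the mouse from the retina as well as the lens.

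The genes lie at 4 places in the GRCm38 annotation. Cryge (chr1:65048555-65051816), Crygd (chr1:65061838-65063440), Crygc (chr1:65071525-65073532), Crygb (chr1:65080222-65082290) and Cryga (chr1:65100389-65103363) form a cluster of 54.8 kb, and Crygf (chr1:65926522-65928311) lies 823.2 kb beyond its Cryga end. Crygs (chr16:22805203-22811410) and Crygn (chr5:24751002-24757848) are single genes on other chromosomes. All 8 genes had a promoter window in a RefSeq table of this build, from 250 bases before to 50 after the annotated start. The last 100 bases before the start are shown for the 4 genes that fell in the DCKO (Crygc, Crygd, Cryge and Crygs), for Crygb, which stood apart on 1 DCKO array, and for Crygf, which resembles Crygd and Cryge in sequence but was not detected. Each runs 5′ to 3′ on the strand of its gene, and capitals mark matches to the searched motifs, which are a TATA-type motif in every gene (TATATA or TATAAA) and, in Crygb, a Sox core (ACAAAG, here on the opposite strand).
Crygb (chr1:65082291-65082390, minus strand): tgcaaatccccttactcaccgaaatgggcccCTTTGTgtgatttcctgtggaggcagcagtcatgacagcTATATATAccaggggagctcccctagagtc
Crygc (chr1:65073533-65073632, minus strand): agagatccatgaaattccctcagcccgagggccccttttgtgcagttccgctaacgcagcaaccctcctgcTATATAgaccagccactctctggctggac
Crygd (chr1:65063441-65063540, minus strand): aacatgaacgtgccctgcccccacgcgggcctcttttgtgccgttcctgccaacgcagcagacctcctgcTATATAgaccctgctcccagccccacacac
Cryge (chr1:65051164-65051263, minus strand): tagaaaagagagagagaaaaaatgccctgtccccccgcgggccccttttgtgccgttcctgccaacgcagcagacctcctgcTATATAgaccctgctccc
Crygf (chr1:65926422-65926521, plus strand): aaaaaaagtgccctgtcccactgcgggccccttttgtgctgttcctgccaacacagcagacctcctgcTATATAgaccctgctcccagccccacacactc
Crygs (chr16:22811411-22811510, minus strand): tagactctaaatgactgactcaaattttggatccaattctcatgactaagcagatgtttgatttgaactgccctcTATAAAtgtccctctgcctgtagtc

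Around the TATATA nearest the start, the promoters of Crygd, Cryge and Crygf were close copies of each other. With the TATATA nearest the start put in register, 70 of 73 bases matched between Crygd and Cryge, 69 of 73 between Cryge and Crygf and 66 of 73 between Crygd and Crygf. Crygc matched Cryge at 43 of 73 bases, and Crygb matched Cryge at 31 of 73. A run of 33 bases was shared exactly by Crygd, Cryge and Crygf and was found in 3 of all 32851 windows, those of the same 3 genes: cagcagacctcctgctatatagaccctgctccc. The annotated start of Cryge falls closer to this run than that of Crygf, so that its TATATA begins 18 bases before the start in Cryge and 32 in Crygf. The start that the table uses for Cryge lies inside the annotated span of the gene, so the Cryge stretch shown is upstream of that start only and not of the whole gene.

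TATATA, which reads the same on both strands, was present in 7 of the 8 member windows (all but Crygs) and in 5.67% of all windows. Crygs carried TATAAA, which was searched on both strands and found in 13.6% of windows. The Maf recognition core TGCTGA was found on either strand in Cryga, Crygc, Crygn and Crygs, against 19.5% of all windows, and its extended form TGCTGAC, which contains it, was found in Cryga alone of the members and in 4.67% of windows. Of the Sox cores, ACAAAG was present in Cryga and Crygb (18.7% of all windows) and ACAATG in Crygd and Crygs (12.6%). Cryge, which fell in the DCKO, and Crygf, which was not detected, held neither core, whereas each of the other 6 windows held at least 1. These are matches of letters within 300 bases and not evidence of binding.

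**Figure D1:**
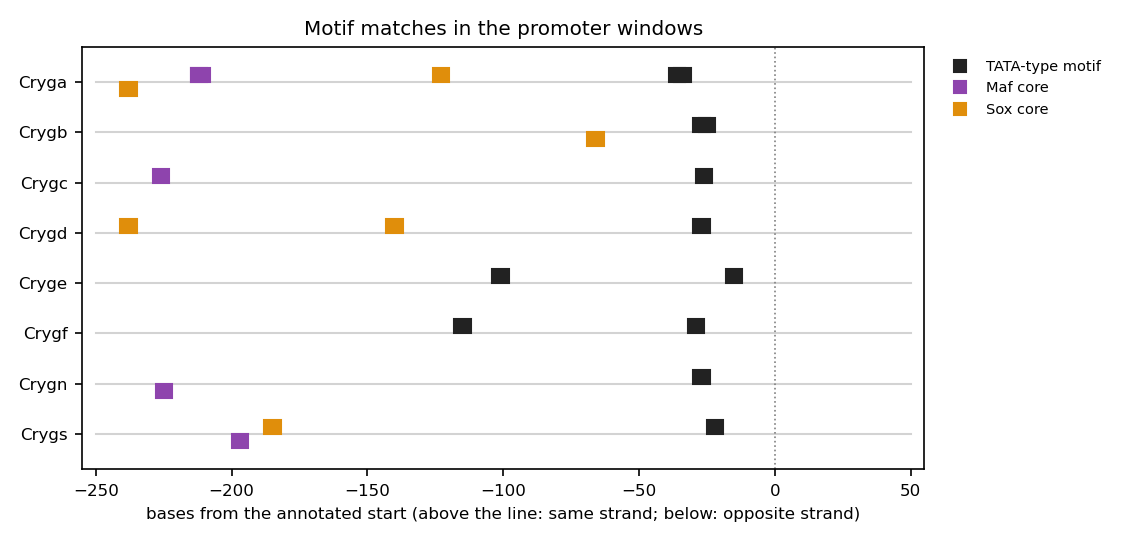
Matches to the searched motifs in the promoter windows of the 8 γ-crystallin genes, by distance in bases from the annotated start (0, dotted line), with matches on the strand of the gene above each line and on the opposite strand below it. A TATA-type motif lies within 40 bases before the start in every gene, whereas the Maf and Sox cores differ in position and number between genes.

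In the DCKO, transcripts of Crygc, Crygd, Cryge and Crygs fell to or near the background of the array, while Crygb, Crygn, Cryga and Crygf did not pass the test or could not be tested. In such tissue pieces, less γ-crystallin RNA per cell and fewer cells that express it cannot be told apart. Over the 11 probes, a detection p under 0.05 was reached in 4 of 33 probe measurements on DCKO arrays and in 27 of 33 on WT arrays. A probe is called detected here when its signal passed that limit against the negative control beads of its own array. Log2 levels are intensities after background correction, addition of 16 and quantile normalization, and the dimmest detected probe of an array lay at a log2 level of 5.38 to 5.46 on the DCKO arrays and 5.36 to 5.53 on the WT arrays. Levels of different probes are not comparable with each other, since probes bind with different strength.

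**Figure D2:**
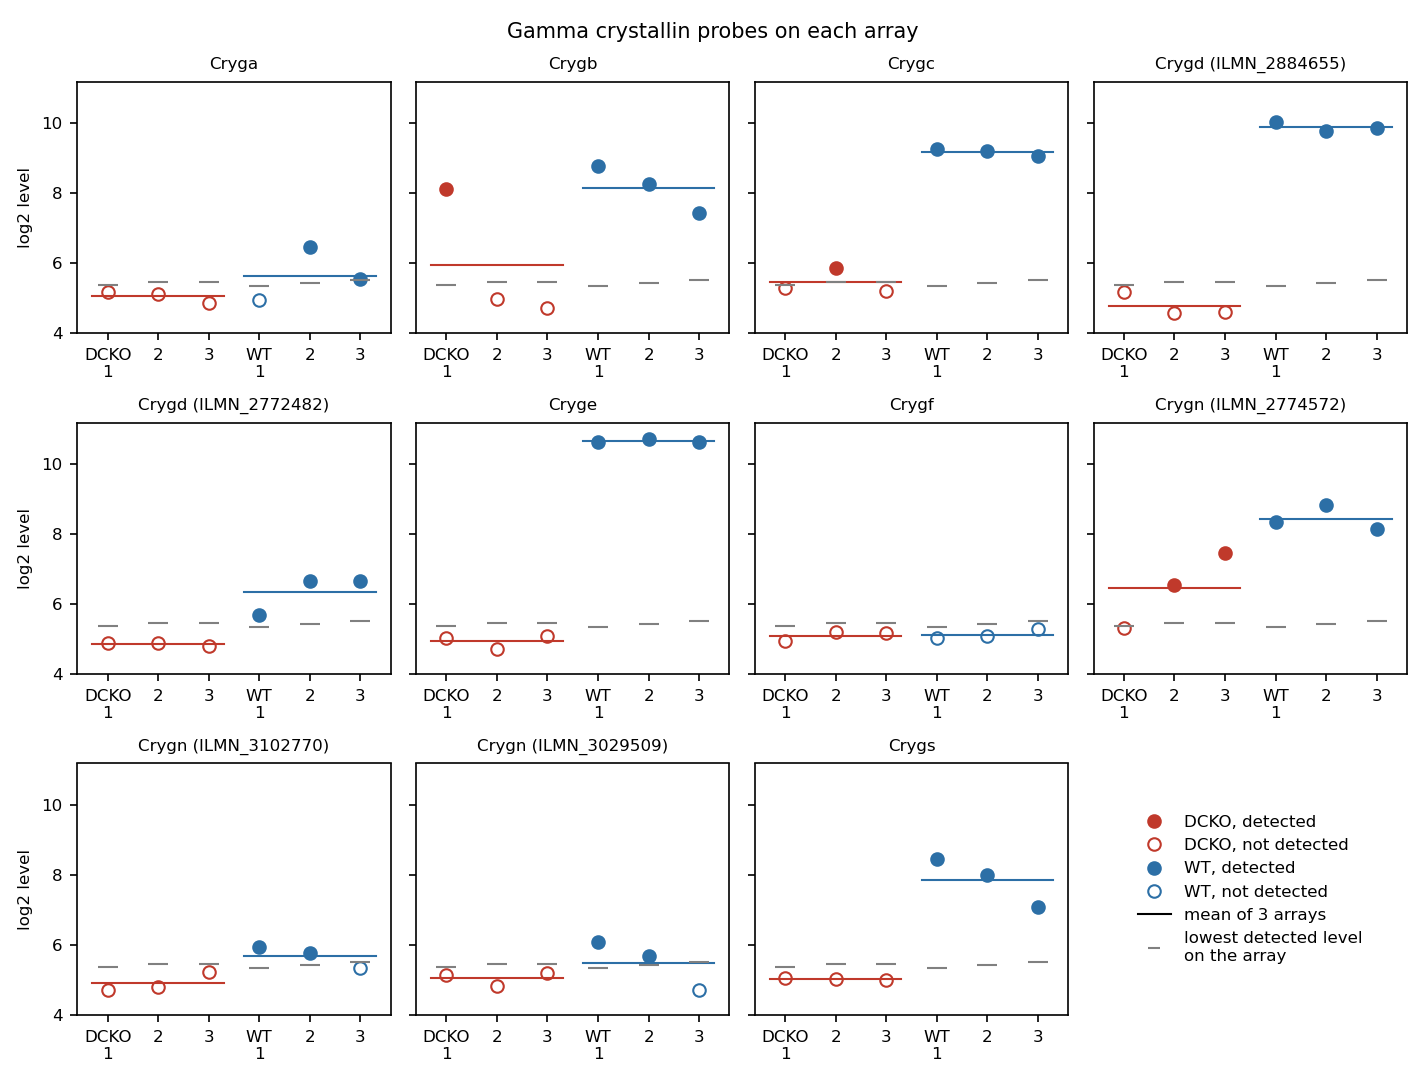
Log2 level of each of the 11 γ-crystallin probes on each array, with 3 DCKO arrays (red) left of 3 WT arrays (blue), bars at the means, open circles where the probe was not detected, and grey ticks at the lowest detected level of the array. DCKO points are filled in only 4 places, for Crygb on replicate 1, Crygc on replicate 2 and Crygn on replicates 2 and 3.

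Cryge, a γ-crystallin of the fibre cells in the core of the lens, fell to background in the DCKO. Its log2 level was 5.02, 4.72 and 5.09 on the DCKO arrays, against 10.63, 10.73 and 10.65 on the WT arrays. The raw signals were 191, 167 and 197 in the DCKO and 1725, 1761 and 1682 in the WT. None of the DCKO values was detected and the WT values were tightly grouped, with means of 4.94 ± 0.20 in the DCKO and 10.67 ± 0.054 in the WT (SD, n = 3 each). The log2 difference was -5.73 (SE 0.22, limma adjusted p = 0.000307). Since the DCKO signal was background, the fold is a lower bound, of at least 37.8-fold lower in the DCKO, set by the dimmest detected probes of the DCKO arrays.

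Crygd, its neighbour with a nearly identical promoter around the TATATA, was measured by 2 probes. On the brighter probe the log2 level was 5.17, 4.57 and 4.60 in the DCKO, none detected, against 10.04, 9.78 and 9.87 in the WT. This probe fell by 5.12 on the log2 scale (SE 0.25, limma adjusted p = 0.000518), or at least 22.1-fold. On the dimmer probe the log2 level was 4.88, 4.89 and 4.79 in the DCKO, again none detected, and 5.68, 6.67 and 6.67 in the WT. The groups did not overlap on either probe, but the dimmer one, with a log2 difference of -1.48 (95% confidence interval -2.26 to -0.71), did not pass (limma adjusted p = 0.0559). Its WT signals of 224, 264 and 298 stood little above its DCKO signals of 183, 179 and 180. It passed under 4 of 14 alternatives, for example with the processed intensities of the authors (adjusted p = 0.0328, range 0.0328 to 0.178 over the alternatives).

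Crygc, the next gene of the cluster, had log2 levels of 5.30, 5.87 and 5.20 in the DCKO, against 9.26, 9.20 and 9.06 in the WT. DCKO replicate 2 was the only DCKO array on which it was detected, at a raw signal of 215, against 204 and 201 on replicates 1 and 3 and 673 to 759 in the WT. The groups were far apart, with a log2 difference of -3.71 (SE 0.26, limma adjusted p = 0.00158) and a fold between means of at least 12.1.

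Crygs, the γ-crystallin of the outer fibres, was flat at background in the DCKO, with log2 levels of 5.07, 5.03 and 5.01 and no detection. In the WT it was detected at 8.48, 8.01 and 7.10, the widest WT spread among the 4 genes that fell (SD 0.70, against 0.030 in the DCKO). The log2 difference was -2.82 (SE 0.37, limma adjusted p = 0.013), at least 5.40-fold lower in the DCKO. Without WT replicate 2 the adjusted p was 0.0616, within a range of 0.00762 to 0.0616 over the 15 alternatives.

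Crygb, which lies between Crygc and Cryga in the cluster, differed between the DCKO arrays themselves. Its log2 level was 8.11 on DCKO replicate 1 but 4.98 and 4.73 on replicates 2 and 3, where it was not detected, against 8.78, 8.26 and 7.43 in the WT. The value of DCKO replicate 1 lay inside the WT range. The raw signal on that array was 496 ± 10.6 (SE over 47 beads), against 184 ± 9.22 (37 beads) and 176 ± 5.58 (47 beads) on the other DCKO arrays and 590 ± 17.8, 442 ± 13.8 and 358 ± 11.1 in the WT. Across all arrays the log2 difference was -2.22 (95% confidence interval -4.42 to -0.01) and did not pass (limma adjusted p = 0.241). Without DCKO replicate 1 it was -3.30 and passed (adjusted p = 0.0292, range 0.0292 to 0.456 over the alternatives).

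The other members did not share this pattern on DCKO replicate 1. Cryge, Crygd, Crygc, Crygs, Crygn, Cryga and Crygf were all undetected there, on each of their probes. For Crygb, DCKO replicate 1 exceeded the mean of the other DCKO arrays by 3.25 on the log2 scale. An excess at least as large was found in 33 of the 19552 tested probes (0.169%) on that array, and, by the same measure, in 28 on DCKO replicate 2 and 19 on DCKO replicate 3. Of the 33, DCKO replicate 1 lay within the WT range in 5, above it in 27 and below it in 1, and 4 were probes of the adult β-globin genes Hbb-bs and Hbb-bt. The probes of these globin genes, which were looked at only after their values were seen, did not move together: of 9 tested, 4 had this excess, 4 others were called lower in the DCKO and 1 did neither. The summed linear level of 5 other erythroid markers, mostly embryonic globins, was 2880 on DCKO replicate 1, against 3040 and 2620 on replicates 2 and 3. The part of blood RNA or of the array in the Crygb value was not tested.

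Crygn, the member between the β and γ families, varied in the DCKO. On its brightest probe the log2 level was 5.32, 6.56 and 7.46 in the DCKO, detected on replicates 2 and 3, against 8.36, 8.83 and 8.15 in the WT. DCKO replicate 3, at a raw signal of 377, came closest to the WT signals of 454 to 575, but the groups did not overlap. The log2 difference of -2.0 (95% confidence interval -3.30 to -0.70) did not pass the test across all probes (limma adjusted p = 0.0983, range 0.0499 to 0.26 over the alternatives). The lowest of these came from leaving out the background correction.

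Its other 2 probes were detected on WT replicates 1 and 2 alone and were left out of the fit, which required detection on at least 3 arrays. The first was at 4.73, 4.80 and 5.22 in the DCKO and 5.95, 5.78 and 5.34 in the WT, without overlap (exact permutation test, 2-sided, p = 0.1, the smallest that 3 against 3 arrays can give). The second was at 5.15, 4.82 and 5.20 in the DCKO and 6.10, 5.70 and 4.71 in the WT, with overlap (exact permutation p = 0.4). In the fit without the filter neither passed (limma adjusted p = 0.205 and 0.731).

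Cryga, at the end of the cluster, was near background in both genotypes. It was undetected in the DCKO at 5.16, 5.12 and 4.87 and was detected in the WT on replicates 2 and 3 only, at 4.95, 6.45 and 5.54 (exact permutation p = 0.3). Crygf was not detected on any array, at 4.95, 5.20 and 5.16 in the DCKO and 5.04, 5.08 and 5.28 in the WT (exact permutation p = 0.8). Around the TATATA nearest the start, its promoter, shown above, matches those of Cryge and Crygd almost base for base. The Crygf probe was undetected on the WT arrays, whereas those of Cryge and Crygd were detected on all of them. Whether this reflects the transcript or the probe was not tested. γ-Crystallin genes are close paralogs, and a probe can bind RNA of more than the gene it is named for.

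Of the 6 genes with a tested probe, 4 were called lower (Crygc, Crygd, Cryge and Crygs) and 0 higher at a limma adjusted p under 0.05, with 2.78% of all 10123 tested genes called lower. By probe, 4 of 7 were called lower against 2.81% of all tested probes. Every DCKO array lay below every WT array for 5 of the 6 genes, all but Crygb, as it did for 14.6% of all tested genes. The median log2 difference of the 6 was -3.27, or -3.07 with the undetected genes at their bound, while the median over all tested probes was 0.005. All 6 genes reached the required 3 arrays through their 3 WT detections, Cryge, Crygd and Crygs with no DCKO detection and Crygb, Crygc and Crygn with 1 or 2. The counts and the median therefore describe members admitted by the genotype in which they were higher and support nothing about the family as a whole. Cryga and Crygf did not pass it. Without the filter, Cryga had a limma adjusted p of 0.645 and Crygf of 0.961.

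**Figure D3:**
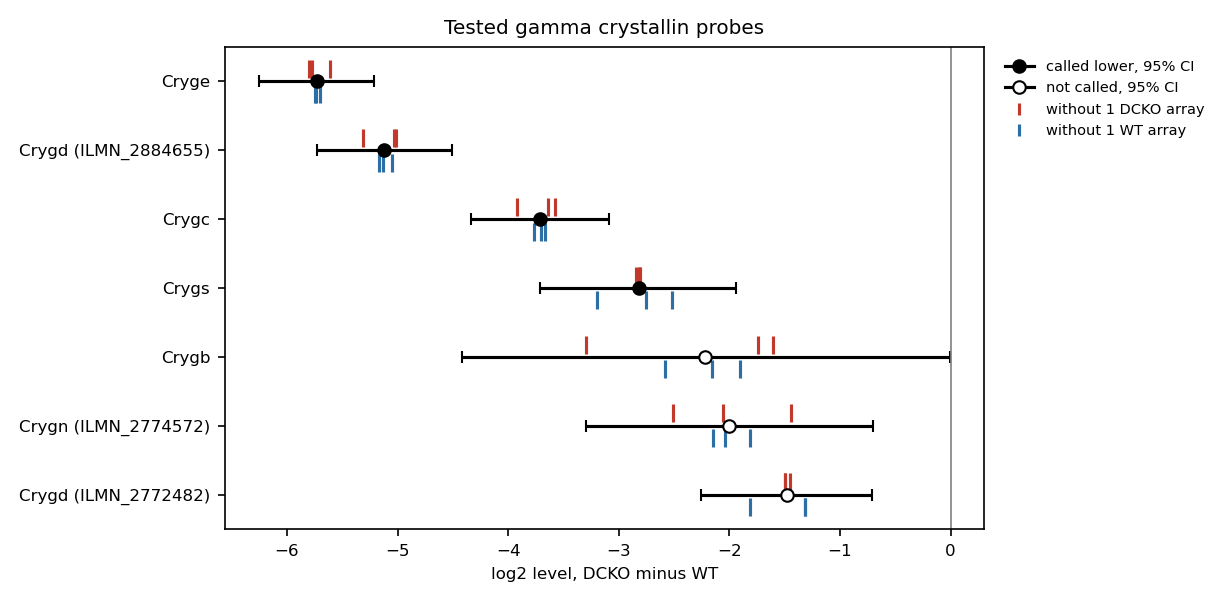
Log2 level of DCKO minus WT for the 7 tested γ-crystallin probes (circles, filled where called lower at an adjusted p under 0.05, with 95% confidence intervals), and the same difference with 1 DCKO array (red ticks) or 1 WT array (blue ticks) left out. The intervals of Cryge and Crygd (brighter probe) lie far below 0, while that of Crygb reaches -0.01 and its difference moves to -3.30 when DCKO replicate 1 is left out.

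The size of these differences rests on how the background was treated. With no background correction the called differences shrank to between -3.24 for Cryge and -1.08 for Crygs, and all 4 genes still passed. Each of the 66 probe measurements rested on 30 to 56 beads, with a standard error over beads of 2.10% to 5.01% of the signal.

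Among regulators linked to γ-crystallin genes, 3 of the 6 tested fell in the DCKO and 0 rose, where 2.78% of all tested genes were called lower and 2.1% higher. Prox1, a homeodomain factor needed for fibre elongation, was at 8.02, 8.26 and 6.81 in the DCKO, against 12.34, 12.28 and 12.59 in the WT (log2 difference -4.71, SE 0.41, limma adjusted p = 0.00351). Maf, which binds crystallin promoters, was at 7.47, 7.07 and 6.72 in the DCKO, against 9.77, 9.40 and 9.75 in the WT (-2.55, SE 0.28, adjusted p = 0.00647). Sox2, an early partner of Pax6 in the placode, fell by 1.17 on the log2 scale (SE 0.24, limma adjusted p = 0.0459) on its brighter probe. The dimmer tested probe of Sox2 was not called, whereas that of Prox1 was called lower. Unlike the called γ-crystallins, all 3 regulators stayed detected on every DCKO array by their brightest probe.

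The regulators that did not pass were Pax6 (log2 difference -0.71, limma adjusted p = 0.118), Six3 (-0.17, adjusted p = 0.857) and Rarb, a retinoic acid receptor (1.00, adjusted p = 0.179). Sox1 and Hsf4, later activators of γ-crystallin genes in fibres, and Gata3, which is needed for fibre differentiation, were not detected on any array of either genotype.

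Most of the other crystallin genes fell as well. Of 8 α- and β-crystallin genes, 7 were tested and 6 fell (against 2.78% of all tested genes), with a median log2 difference of -3.70. All 7 were detected on every WT array, but only Cryab was detected on every DCKO array. The others were thus admitted by the genotype in which they were higher. The count and the median therefore support nothing about this list as a whole. Crybb3, undetected on every DCKO array, was at least 85.0-fold lower, and Cryba4, which did not pass, had a log2 difference of -1.58 (limma adjusted p = 0.082). The betagamma-fold genes that are not lens crystallins did not pass the test: Crybg2 differed by 0.84 and Crybg3 by 1.38 on the log2 scale (limma adjusted p = 0.503 and 0.116), and Crybg1 was not detected.

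Of the tested genes beside the members, Etv5 alone was called, where 2.78% of all tested genes were called lower and 2.1% higher. With shares this low, so few genes cannot show whether genes near the members were spared. Around the chromosome 1 cluster, Fzd5, Plekhm3, Idh1 and Pikfyve differed by -0.18 to -0.09 on the log2 scale and 0 of these 4 was called, while Akr1cl, which lies 15796 bp from the cluster, and Pth2r were not detected. None of the 4 tested genes beside Crygf and none of the 3 beside Crygn was called. Those beside Crygf were Map2, Rpe and, again, Idh1 and Pikfyve, at 246891 to 772486 bp from it. On the Crygs side, Etv5, an ETS factor induced by FGF signalling, fell by 2.51 on the log2 scale (SE 0.33, limma adjusted p = 0.0131). It lies 365633 bp from Crygs. Tra2b, a splicing factor, did not pass (0.12, limma adjusted p = 0.829). Tbccd1, which lies 1804 bp from Crygs, and Ahsg did not pass the detection filter, and Dgkg and Dnajb11 had no named probe.

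**Figure D4:**
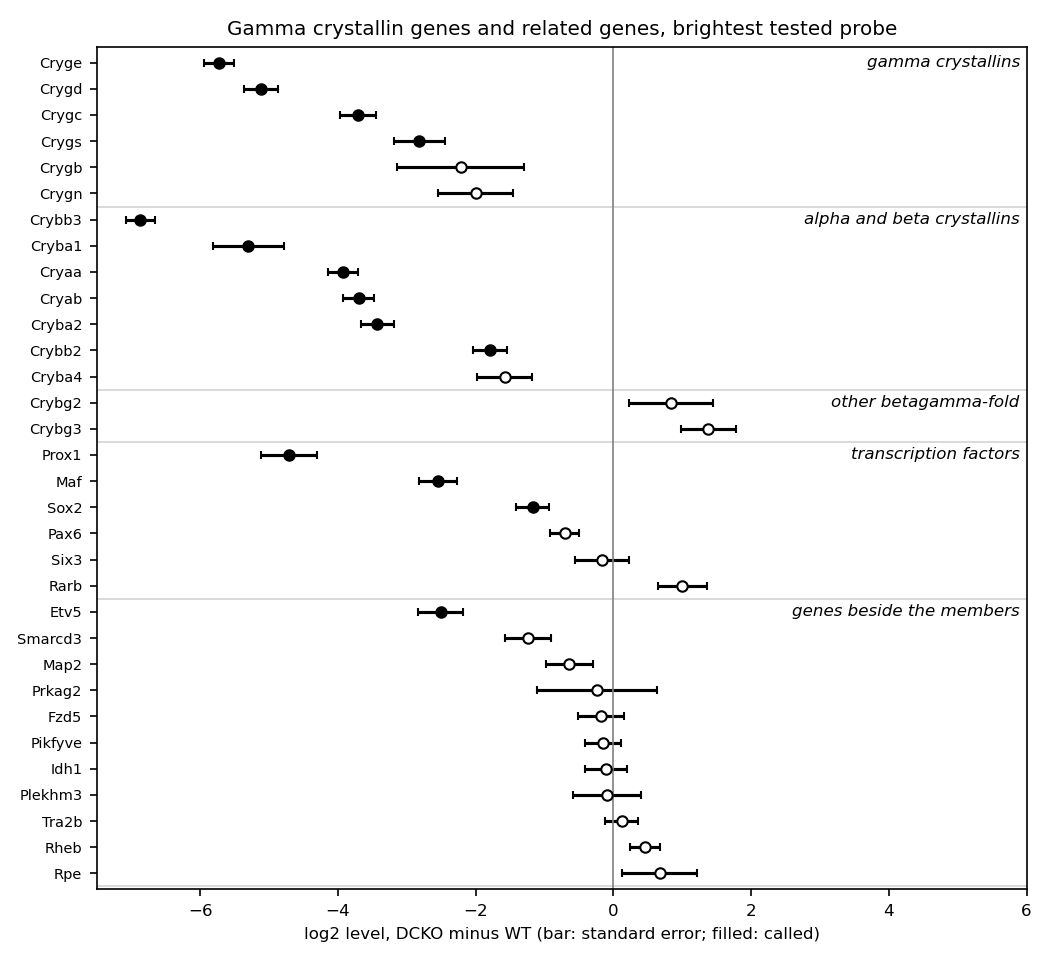
Log2 level of DCKO minus WT for the brightest tested probe of the γ-crystallin genes and of related genes (circles with standard errors, filled where called at an adjusted p under 0.05). The called γ-crystallins lie among the α- and β-crystallins, from -5.73 to -2.82, and of the genes beside the members only Etv5, at -2.51, is filled, the others lying between -1.24 and 0.67.

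The profiles most like the mean of the 6 tested γ-crystallin genes were sought among 9829 other genes, by the root mean square difference of gene-centred log2 levels over the 6 arrays. They were those of Tafa4 (0.17), Kcnj12 (0.22), Cryab (0.25), Cryba2 (0.26) and Lix1 (0.27). Within the family, Crygc lay nearest to the mean (0.31) and Crygb farthest (1.22). Nearest to Crygb were Tmem150a (0.42), Col4a6 (0.47), Phykpl (0.56), Col9a1 (0.58) and Fbxo31 (0.60). Tmem150a was at 8.07 on DCKO replicate 1 against 4.93 and 5.50 on the other DCKO arrays, and at 8.69, 7.65 and 7.71 in the WT. Its likeness to Crygb follows from the search and is not a separate observation.

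The dissected tissue differed between genotypes beyond the crystallins. Over all arrays, 18724 to 19551 probes were detected per DCKO array and 18081 to 19769 per WT array, and 549 probes were called lower and 346 higher. Correlations were 0.878 to 0.883 between DCKO arrays, 0.930 to 0.934 between WT arrays and 0.837 to 0.857 across genotypes. Placode markers were present in the WT, with Pax6, Six3, Sox2, Prox1 and Pitx3 tested and Foxe3 below the filter. Of the 5 tested, 3 fell (Sox2, Prox1 and Pitx3), against 2.78% of all tested genes called lower. Pitx3 (limma adjusted p = 0.0466) was detected on every WT array but on only 1 DCKO array, and so was admitted by the genotype in which it was higher. For the deleted genes, 0 of 3 probes of Crebbp was called and 1 of 4 of Ep300 was called lower (-2.0, limma adjusted p = 0.0159), where the position of the probes relative to the floxed exons was not known.

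Markers of lens fibres and of other cells also differed between the genotypes, some lower and some higher in the DCKO. Their part in the result was not tested. Of the lens fibre markers, 2 of the 5 with a probe were tested and both were called lower, against 2.78% of all tested genes. The log2 difference was -4.45 for Mip and -2.77 for Grifin. Grifin was undetected on every DCKO array and so was admitted by its WT detections. The summed linear level of the 5 was 252 to 272 in the DCKO and 3180 to 3870 in the WT. Bfsp2, Lim2 and Gja3 did not pass the detection filter. Of 7 surface ectoderm and epidermis markers, 3 rose (Grhl2, Krt8 and Trp63, against 2.1% of all tested genes called higher) and 0 fell, with a summed level of 4740 to 5400 in the DCKO and 1830 to 2740 in the WT. Grhl2, Trp63 and Krt14, which was not called, were detected on every DCKO array but not on every WT array. These 3 were thus admitted by the genotype in which they were higher. Of 8 tested macrophage markers, 3 fell (Aif1, Mpeg1 and Tyrobp, against 2.78% of all tested genes called lower). All 8 were detected on every WT array and on at most 1 DCKO array. They were thus admitted by the genotype in which they were higher. The summed level over 10 measured macrophage markers was 302 to 439 in the DCKO and 2150 to 2910 in the WT. Smaller numbers were called in the other lists, beside the same shares of 2.78% lower and 2.1% higher: of 4 erythroid markers 1 fell (Hba-a1), of 3 of periocular mesenchyme 1 fell (Pdgfra) and 1 rose (Prrx1), of 3 neuronal markers 1 rose (Isl1), and of 3 endothelial and 2 optic vesicle markers 0 were called. Prrx1 and Isl1 were detected on every DCKO array but not on every WT array, and so were admitted by the genotype in which they were higher. The brightest probe of Neurog2, a neuronal marker, was not called, whereas its dimmer tested probe was called higher. The summed level of the 8 γ-crystallin genes was 339 to 525 in the DCKO and 3750 to 4440 in the WT. The 525 was that of DCKO replicate 1, where Crygb was the only member detected. All these sums add probes that bind with different strength and include the background of undetected probes, so low sums are partly background.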

How the data were processed

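RNA of microdissected E10.5 tissue was measured on 6 Illumina bead arrays (3 DCKO, 3 WT). The authors used GenomeStudio, whose version is not stated here, and deposited, for each probe and array, the mean bead intensity without normalization, a detection p-value against negative controls, the number of beads and the standard error over beads. A second table deposited by the authors holds background-subtracted, normalized intensity values and served as an alternative. The number of arrays limits the precision.

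Intensities were background corrected by normexp with the detection p-values (offset 16), quantile normalized and put on the log2 scale by neqc of limma 3.58.1 in R 4.3.3. The fit (lmFit and eBayes, no block) took the 19552 of 45281 probes that reached a detection p below 0.05 on 3 arrays or more, and Benjamini-Hochberg adjustment ran over all of them. The script was tested on simulated data. A gene is given by its tested probe with the highest mean. Where a genotype was undetected, each of its arrays took the higher of its lowest detected level and the probe's own, which gives a lower bound on the fold between means. Of the probes, 34885 carry 1 symbol, 18 carry several and 10378 are unnamed here; names, positions and promoters are from RefSeq (GRCm38.p6).

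The members and lists were chosen with earlier results of these data known. The named genes are every γ-crystallin by every probe, the related crystallins, regulators and flanking genes (the 3 nearest named protein-coding genes on each side), the 5 nearest profiles, and examples from marker lists. The test of GenomeStudio was not run. Alternatives were other background corrections and scalings, other filters, thresholds and moderation, the mean of a gene's probes, a replicate block and each array left out in turn.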

Additional observations from a re-analysis of the deposited data

How the results depend on the processing

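All 7 tested γ-crystallin probes kept a negative difference under every alternative in which they were tested. Cryge, Crygc and the brighter probe of Crygd stayed called under all 15 alternatives of processing, block and left-out arrays, with log2 differences of -6.63 to -3.24, -4.37 to -1.80 and -5.85 to -2.67. Crygs lost its call with a replicate block (adjusted p = 0.0545) and without WT replicate 2 (0.0616), and an adjusted p under 0.01 also left 3 genes called. Leaving out 1 array in turn gave 3 to 5 γ-crystallin genes called lower, against 4 with all arrays; the 5 included Crygb, without DCKO replicate 1. Crygn became the fifth gene with no background correction (-0.96, adjusted p = 0.0499). The dimmer Crygd probe passed with scaling to the 75th percentile (adjusted p = 0.0457), the processed intensities of the authors (0.0328), trend and robust moderation (0.0385) and without WT replicate 1 (0.0416), and was not tested at a detection p under 0.01. Over all tested probes, 549 were called lower, 156 with the replicate block and 170 to 398 with 1 array left out. Same-numbered arrays of the genotypes shared deviations at correlations of 0.0332, 0.0325 and 0.0105. Differently numbered arrays had lower ones, of -0.0335 to 0.000797. All were small, and the numbers were not taken as pairs in the main fit, with the replicate block as an alternative. The causes of the changes between settings were not tested. Without between-array normalization the median difference of all probes was 0.123 on the log2 scale, and the share of calls that were lower was 53.3%, against 61.3%. Arrays hold no read depth. For the called genes, the DCKO signal at background limits what fold can be stated.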
